A study of Mus musculus with 12 samples.

Results

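The genes examined here encode the insulin receptor, the enzymes that carry its signal to the kinase AKT and to the growth kinase complex mTORC1, and the proteins that restrain this route. The list names 34 genes by their role in the pathway, of which 18 are activators and 16 are brakes, and the rule sets no threshold on a measured change. A probe of the array was taken when its annotated symbol, current or older, was on the list, and it was kept when it was detected above the negative control beads (detection p under 0.05) on at least 4 of 12 arrays. Of 73 such probes, 44 were kept, and they measured 29 of the 34 genes, among 10802 genes measured in all.

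The arrays compared the whole pituitary gland of pregnant and non-pregnant mice. The pregnant group held 8 wild-type c57BL6/J females, mated with studs of the same strain and killed at e15.5, counted in days from the vaginal plug. The non-pregnant group held 4 wild-type virgin c57BL6/J females. All were 8 weeks old when allocated to mating or left virgin, and they came from 4 litters, although no label ties an animal to its litter. Total RNA of each gland was run on 1 bead array (MouseWG-6 v2.0), so p-values measure the spread between animals and treat littermates as independent. The glands were not dissected into lobes or sorted, so fewer cells of a type and less RNA per cell cannot be told apart.

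Insulin binding activates the receptor kinase, which phosphorylates the docking proteins IRS1 and IRS2. These recruit PI3-kinase, whose lipid product brings AKT to the membrane. AKT inhibits the TSC complex and so frees the GTPase Rheb to switch mTORC1 on, while amino acids act through the Rag GTPases at the lysosome, and active mTORC1 promotes protein synthesis by phosphorylating S6 kinase and the 4E-BP repressors. In the pituitary, insulin and insulin-like growth factor 1 are known to act on hormone-producing cells, somatotrophs among them. The mRNA of these genes, not the activity of the proteins, was measured.

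Values are log2 intensities after background correction and quantile normalisation, and changes are pregnant minus non-pregnant with their SE. Each gene is given by the probe of highest mean, and a gene was called when any of its kept probes had an adjusted p under 0.05 (limma) and a log2 change of at least 0.322 in size. Between 38.0% and 41.0% of the 45281 probes were detected on a given array. The hormone genes Prl, Gh, Pomc, Lhb, Tshb and Cga were detected on all 12 arrays. No marker of lactotrophs (3 of 5 measured), somatotrophs (5 of 6), corticotrophs (4 of 5) or thyrotrophs (5 of 5) was called. Nor was any marker of melanotrophs, stem cells, pituicytes, endothelial cells or pericytes and fibroblasts called. An unadjusted p under 0.05 was reached by 3 somatotroph markers (2 higher, 1 lower) and 4 thyrotroph markers (1 higher, 3 lower). It was also reached by 1 corticotroph, 2 stem cell and 1 endothelial marker, all lower, against 17.6% of all genes. Of the gonadotroph markers (5 of 6 measured) Lhb was called lower, while Fshb was higher without a call (1.61 ± 0.48, adjusted p = 0.0943). At an unadjusted p under 0.05, 1 gonadotroph marker was higher and 3 lower. Of 6 macrophage markers measured, Lyz2 was called lower (-0.87 by its probe of highest mean, adjusted p = 0.0608, the call being by another probe), and of 2 white cell markers measured, the B cell gene Cd79b was called higher (0.78, adjusted p = 0.00292). The 5 proliferation markers measured were not called, although all 5 were higher at any size (median 0.72, 3 with an unadjusted p under 0.05). Plk1, Birc5, Top2a and Cdk1 were detected on 6 to 8 of 8 pregnant but only 1 or 2 of 4 non-pregnant arrays. These genes were thus kept mainly through the group where they were higher. The part of these cells in the pathway results was not tested. On the first principal component, non-pregnant replicate 4 lay at 0.26, away from the other non-pregnant arrays at -32.7 to -21.3. Results that turn on that array are given without it as well.

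Of the 29 pathway genes, 1 was called higher in pregnant females and 1 lower. The 4E-BP1 gene Eif4ebp1 was higher by 1.04 ± 0.20 (SE) on the log2 scale, and the receptor substrate gene Irs2 was lower, with a log2 change of -0.99 ± 0.25. Over all 10802 genes, 1.51% were called higher and 1.56% lower. An unadjusted p under 0.05 was reached by 5 of the 29 genes (Eif4ebp1 and Trib3 higher, and Irs2, Rragd and Ddit4 lower), against a background of 17.6% of all genes. The groups did not overlap for 1 of the 29, Eif4ebp1, while they did not overlap for 3.19% of all genes. The share of the pathway that differed was therefore near that of the array as a whole. Most changes were small: 22 of the 29 had a log2 change under 0.25 in size, and for 22 of the 29 the 95% interval of the change lay within 0.5 of 0.

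**Figure D1:**
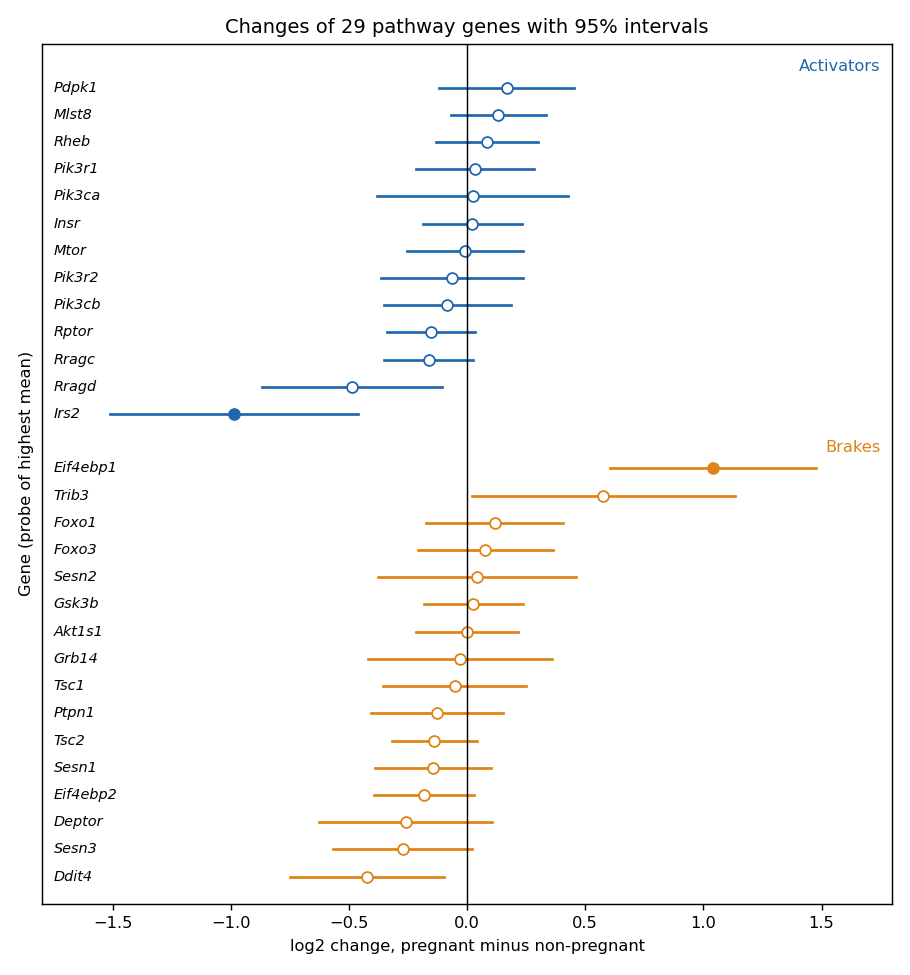
Log2 change (pregnant minus non-pregnant) of 29 insulin, AKT and mTORC1 signalling genes, each by its probe of highest mean, with points for the estimate, lines for the 95% interval and filled points for called genes. Activators stand in the upper block and brakes in the lower one. Irs2 at -0.99 and Eif4ebp1 at 1.04 are the filled points, and most other intervals cross 0.

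At the top of the pathway, the receptor gene Insr was not called. It ranged over 10.78 to 11.09 on the 8 pregnant arrays (median 10.99), against 11.00, 10.82, 11.16 and 10.80 on the 4 non-pregnant arrays. The groups overlapped throughout, and the log2 change was 0.02 ± 0.10 (adjusted p = 0.934), with a 95% interval of -0.19 to 0.23. Irs2 encodes a docking protein that carries the signal of the receptor to PI3-kinase. Its values ranged over 9.00 to 10.12 on the 8 pregnant arrays (median 9.70), against 11.38, 9.96, 10.71 and 10.62 on the 4 non-pregnant arrays. Non-pregnant replicates 1, 3 and 4 lay above every pregnant array, whereas non-pregnant replicate 2 lay below pregnant replicates 1, 4 and 5. In the deposited intensities, before any correction, Irs2 ran between 625.4 and 1325.1 in pregnant females, against 2530.4, 1062.5, 1717.6 and 1541.2 in non-pregnant females.

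The call of Irs2 stood at the edge of the threshold (adjusted p = 0.0498). Leaving out any 1 of 9 arrays ended it (adjusted p at most 0.170), non-pregnant replicate 4 among them (adjusted p = 0.0518), and the log2 change nearest to 0 was -0.75, without non-pregnant replicate 1. Immediate early genes are switched on in neurons and endocrine cells within minutes of a stimulus. Of 26 listed, 21 were measured, of which 7 were called lower, none was called higher and 14 were not called. At any size 18 of the 21 were lower and 3 higher (Klf6, Jund and Maff), with a median log2 change of -1.18. Their mean deviation from each gene's 12-array mean ran between -0.68 and 0.13 on pregnant arrays, against 0.91, -0.04, 1.22 and 0.45 on the 4 non-pregnant arrays. Non-pregnant replicate 2 was thus the lowest non-pregnant array both for these genes and for Irs2, and non-pregnant replicates 1 and 3 were the 2 highest for both. The part of the immediate early genes in the Irs2 result was not tested.

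The second substrate gene, Irs1, gave no value here, since its 1 probe was detected on none of the 12 arrays. PI3-kinase was represented by both p85 regulatory subunit genes, Pik3r1 and Pik3r2, and by the catalytic subunit genes Pik3ca (p110 alpha) and Pik3cb (p110 beta), none of which was called. Pik3r1 measured 11.95 ± 0.21 across pregnant glands and 11.92 ± 0.09 across non-pregnant glands (SD, n = 8 and 4). The 4 log2 changes lay between -0.08 for Pik3cb and 0.03 for Pik3r1. The widest 95% interval of the 4, that of Pik3ca, ran between -0.38 and 0.43, and its values ran between 7.64 and 8.74 among pregnant glands alone. A second probe of Pik3r2 gave -0.31 ± 0.16 (adjusted p = 0.341), and a second probe of Pik3r1 gave 0.17 ± 0.09 (adjusted p = 0.390). Pdpk1, which encodes the kinase PDK1 that phosphorylates AKT, had a log2 change of 0.17 ± 0.13 by its brighter probe and -0.04 ± 0.10 by the other. The probes of Akt1 (1 probe) and Akt2 (2 probes) were detected on none of the 12 arrays, so the AKT kinases themselves were not measured.

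Among the genes of mTORC1 and its lysosomal anchor, Rragd stood lowest. It encodes a Rag GTPase that, in a pair with RagA or RagB, brings mTORC1 to the lysosome when amino acids are plentiful. Rragd ranged over 7.60 to 8.44 on the 8 pregnant arrays (median 8.18), against 9.03, 8.71, 8.45 and 8.22 on the 4 non-pregnant arrays. Non-pregnant replicates 1 to 3 lay above every pregnant array, replicate 3 by very little, and replicate 4 lay among them. Both Rragd probes gave a like estimate, -0.49 ± 0.18 and -0.48 ± 0.17, and neither was past the threshold (adjusted p = 0.174 and 0.147). Without non-pregnant replicate 4 the brighter probe changed by -0.62 (adjusted p = 0.0684) and Rragd was called through the other probe. Without non-pregnant replicate 1 the change was -0.34 (adjusted p = 0.444).

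The other 5 genes of this group were not called. The kinase gene Mtor measured 9.08 ± 0.16 across pregnant glands and 9.09 ± 0.22 across non-pregnant glands (SD, n = 8 and 4). Rptor, which encodes the scaffold that recruits substrates, had a log2 change of -0.15 ± 0.09. Rheb, the GTPase gene, had one of 0.08 ± 0.10, and Rragc, the closest relative of Rragd, one of -0.16 ± 0.09. Rragc ranged over 11.69 to 11.97 on the 8 pregnant arrays (median 11.78), against 11.92, 12.07, 12.03 and 11.87 on the 4 non-pregnant arrays. Both Rag genes were thus lower on average in pregnant glands, with overlap in each and no call. Mlst8, a subunit gene of both mTOR complexes, was measured by 3 probes, with log2 changes of 0.13, 0.10 and 0.16. Of the S6 kinase genes, Rps6kb2 was detected on none of the 12 arrays by its 1 probe, and no probe for Rps6kb1 was found in the annotation used here. Over the 13 activators measured, the median log2 change was -0.01, with 6 higher and 7 lower at any size, beside a median of -0.01 over all genes.

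**Figure D2:**
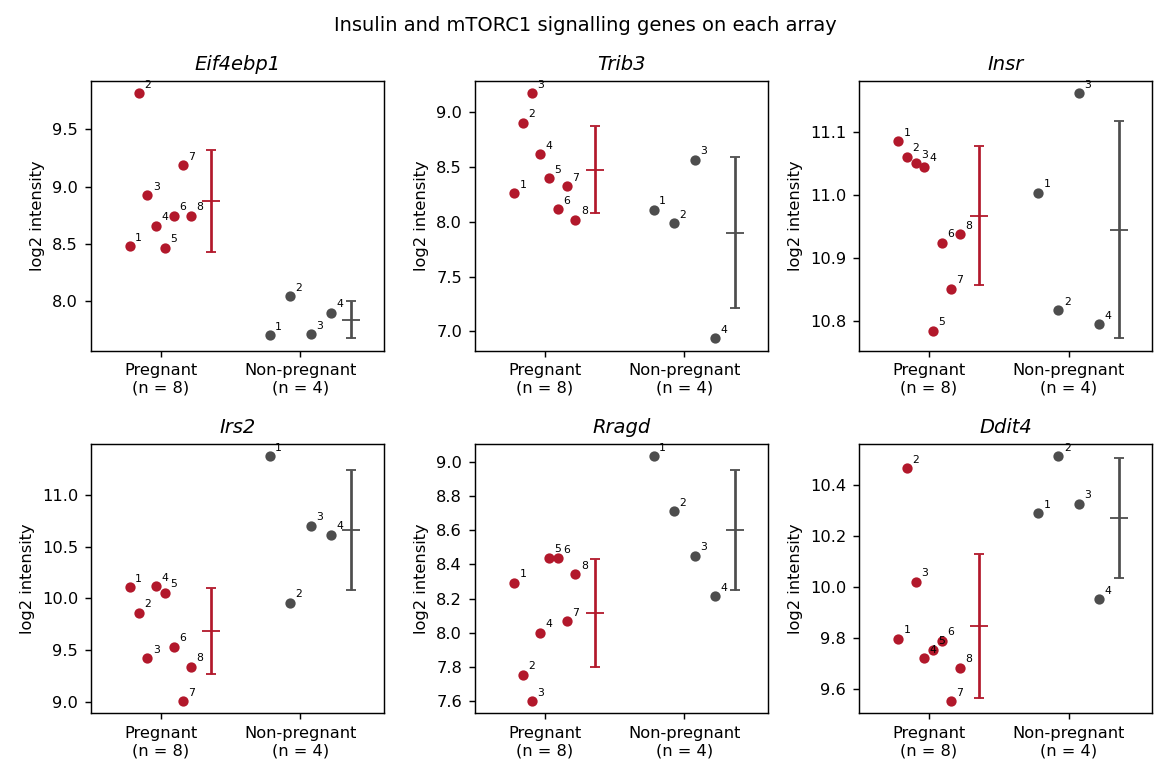
Log2 intensity of Eif4ebp1, Trib3, Insr, Irs2, Rragd and Ddit4 on each array, with replicate numbers beside the points and the mean and SD as bars, for 8 pregnant (red) and 4 non-pregnant (grey) females. Eif4ebp1 is the one panel without overlap, at 8.46 to 9.82 in pregnant against 7.70 to 8.04 in non-pregnant females, and non-pregnant replicate 4 is the lowest point of Trib3 at 6.93.

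The brakes were measured for all 16 listed genes. At the receptor, Grb14 encodes an adaptor that inhibits the receptor kinase and Ptpn1 encodes the phosphatase PTP1B, which dephosphorylates it. Grb14 had a log2 change of -0.03 ± 0.18 by its brighter probe. A dim second probe of Grb14, detected on 2 of 8 pregnant and 4 of 4 non-pregnant arrays, gave -0.41 ± 0.13 (adjusted p = 0.108). Ptpn1 measured 9.96 ± 0.25 across pregnant glands and 10.09 ± 0.13 across non-pregnant glands (SD, n = 8 and 4), with a log2 change of -0.13 ± 0.13. Grb10, the relative of Grb14 that the study discusses with this pathway, was not on the list. Its log2 change of 0.60 ± 0.16 missed the threshold (adjusted p = 0.0625), and pregnant replicate 5 at 11.14 lay below non-pregnant replicate 2 at 11.17.

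Trib3 encodes a pseudokinase that binds AKT and is induced by amino acid shortage and other stress through the transcription factor ATF4. It ranged over 8.02 to 9.17 on the 8 pregnant arrays (median 8.36), against 8.11, 7.99, 8.57 and 6.93 on the 4 non-pregnant arrays. The groups overlapped, since non-pregnant replicate 3 lay above 5 of the 8 pregnant arrays. Its log2 change of 0.58 ± 0.26 missed the threshold (adjusted p = 0.275). The estimate was 0.25 without non-pregnant replicate 4 (adjusted p = 0.534).

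Of the 29 measured genes, 26 had a promoter sequence in the RefSeq table used here (GRCm38.p6, 250 bases before to 50 after the start site). Insr, Deptor and Eif4ebp1 were not among them. Each was searched on both strands for the ATF4 element TGATGNAA, the FOXO element GTAAACA, the cAMP response element TGACGTCA and the CLEAR element TCACGTGA of the lysosomal factors TFEB and TFE3. Among all 32851 promoters of the table, 3.97% held the ATF4 element, 3.65% the FOXO element, 1.79% the cAMP response element and 0.974% the CLEAR element. In the pathway genes, the ATF4 element was found in Trib3 alone, 14 bases after the start site on the opposite strand, the FOXO element in Sesn1 alone, and the other two motifs in none. The promoters of Trib3, with the ATF4 element in capitals as it reads on the strand of the gene, and of Irs2, the called gene with a sequence and with none of these motifs, are shown for comparison. They lie at chr2:152344011-152344310 (minus strand, 58.3% G and C) and at chr8:11008880-11009179 (minus strand, 72% G and C). These matches describe the letters alone.
Trib3: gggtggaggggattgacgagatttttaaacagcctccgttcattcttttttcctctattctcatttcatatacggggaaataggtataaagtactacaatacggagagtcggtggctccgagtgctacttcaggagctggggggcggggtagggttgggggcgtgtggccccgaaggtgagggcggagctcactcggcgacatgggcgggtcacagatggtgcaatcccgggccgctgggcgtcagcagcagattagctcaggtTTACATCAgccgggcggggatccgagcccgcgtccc
Irs2: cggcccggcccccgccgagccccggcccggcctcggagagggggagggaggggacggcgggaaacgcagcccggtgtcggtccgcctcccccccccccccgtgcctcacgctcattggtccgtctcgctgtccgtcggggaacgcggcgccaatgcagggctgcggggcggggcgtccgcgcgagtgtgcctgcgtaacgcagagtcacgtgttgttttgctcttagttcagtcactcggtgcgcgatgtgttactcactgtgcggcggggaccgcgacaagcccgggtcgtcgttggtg

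The inhibitors of mTORC1 formed the largest set of brakes, with 8 genes measured, none called and 7 of the 8 lower at any size (median log2 change -0.14). Ddit4 encodes REDD1, which is induced by stress and glucocorticoids and acts through the TSC complex. Its values ranged over 9.55 to 10.47 on the 8 pregnant arrays (median 9.77), against 10.29, 10.51, 10.33 and 9.95 on the 4 non-pregnant arrays. The highest pregnant array, replicate 2, lay among the non-pregnant ones, and non-pregnant replicate 4 lay below pregnant replicates 2 and 3. The log2 change of -0.42 ± 0.15 missed the threshold (adjusted p = 0.165). Leaving out pregnant replicate 2 gave -0.51 and a call (adjusted p = 0.0396). Leaving out non-pregnant replicate 4 gave -0.53 and no call (adjusted p = 0.0673).

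The TSC complex genes showed small changes that were not called. Tsc2, the GTPase-activating subunit that inactivates Rheb, had log2 changes of -0.14, -0.12 and -0.08 by its 3 probes. The probes of Tsc1, its partner, disagreed in sign, at -0.05 ± 0.14 and 0.27 ± 0.17 (adjusted p = 0.889 and 0.458). Akt1s1, which encodes the mTORC1 partner PRAS40, measured 9.66 ± 0.15 across pregnant glands and 9.66 ± 0.10 across non-pregnant glands (SD, n = 8 and 4). Deptor, another inhibitory partner of mTOR, had a log2 change of -0.26 ± 0.17 (adjusted p = 0.477). Its pregnant values spread widely, between 7.37 and 8.40 (median 8.06), against 8.19, 8.13, 8.49 and 8.36 on the 4 non-pregnant arrays, and pregnant replicate 7 was the lowest. The sestrin genes encode inhibitors that act on the amino acid sensing complex GATOR2, and their log2 changes were -0.14 ± 0.12 for Sesn1, 0.04 ± 0.20 for Sesn2 and -0.27 ± 0.14 for Sesn3. Sesn3 had the lowest adjusted p of these, 0.334. It ranged over 6.42 to 7.21 on the 8 pregnant arrays (median 6.50), against 7.01, 6.89, 6.83 and 6.84 on the 4 non-pregnant arrays. Of the pregnant arrays 6 lay below every non-pregnant one, pregnant replicate 8 lay among them and pregnant replicate 5 lay above all 4.

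The last 5 brakes are outputs that the active pathway holds in check. Eif4ebp1 encodes 4E-BP1, which binds the cap-binding factor eIF4E and blocks translation until mTORC1 phosphorylates it. Its values ranged over 8.46 to 9.82 on the 8 pregnant arrays (median 8.75), against 7.70, 8.04, 7.71 and 7.90 on the 4 non-pregnant arrays. Every pregnant array lay above every non-pregnant one, and pregnant replicate 2 was the highest. In the deposited intensities the gap was already present, with 496.4 to 988.9 in pregnant females, against 302.0, 366.6, 322.4 and 341.5 in non-pregnant females. Before normalisation, the median intensity over all probes was also higher on pregnant arrays (151.1 to 179.6) than on non-pregnant arrays (144.8 to 147.6).

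Eif4ebp1 passed the test (adjusted p = 0.0147). Its log2 change was 0.91 without pregnant replicate 2 (adjusted p = 0.00414) and 1.06 without non-pregnant replicate 4 (adjusted p = 0.0201). Leaving out non-pregnant replicate 1 or 3 ended the call (adjusted p = 0.0622 and 0.0669), with log2 changes of 0.995 and 0.999. Red cell genes were also higher in pregnant glands: of 7 listed, 5 were measured and all 5 were called higher, with a mean deviation of 0.14 to 1.44 on pregnant arrays and -1.51 to -1.09 on non-pregnant arrays. Pregnant replicate 2 was the highest array both for red cell genes and for Eif4ebp1, while pregnant replicate 7, second for Eif4ebp1 at 9.19, stood at 0.15 for red cell genes. The part of red cell RNA in the Eif4ebp1 result was not tested.

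The other 4 restrained outputs were not called. Eif4ebp2, the second 4E-BP gene, measured 10.03 ± 0.09 across pregnant glands and 10.21 ± 0.20 across non-pregnant glands (SD, n = 8 and 4), a log2 change of -0.18 ± 0.10 (adjusted p = 0.375). Non-pregnant replicate 2 at 9.95 lay among the pregnant arrays, which spanned 9.86 to 10.18, while non-pregnant replicates 1 and 4, at 10.37 and 10.36, lay above them. The 95% interval of Eif4ebp2, -0.39 to 0.03, did not reach that of Eif4ebp1, 0.60 to 1.48, although both genes encode repressors of the same factor. The difference between these genes was not tested. Gsk3b, a kinase gene of glycogen metabolism whose product AKT inhibits, had a log2 change of 0.03 ± 0.10. The FOXO transcription factors are kept out of the nucleus by AKT. Foxo1 had a log2 change of 0.12 ± 0.14 and Foxo3 one of 0.08 ± 0.13. A dim second Foxo1 probe, detected on 1 of 8 pregnant and 3 of 4 non-pregnant arrays, gave -0.34 ± 0.17 (adjusted p = 0.310).

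Over the 16 brakes the median log2 change was -0.04, with 6 higher and 10 lower at any size. Without the 5 restrained outputs it was -0.13, with 2 higher (Trib3 and Sesn2) and 9 lower.

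**Figure D3:**
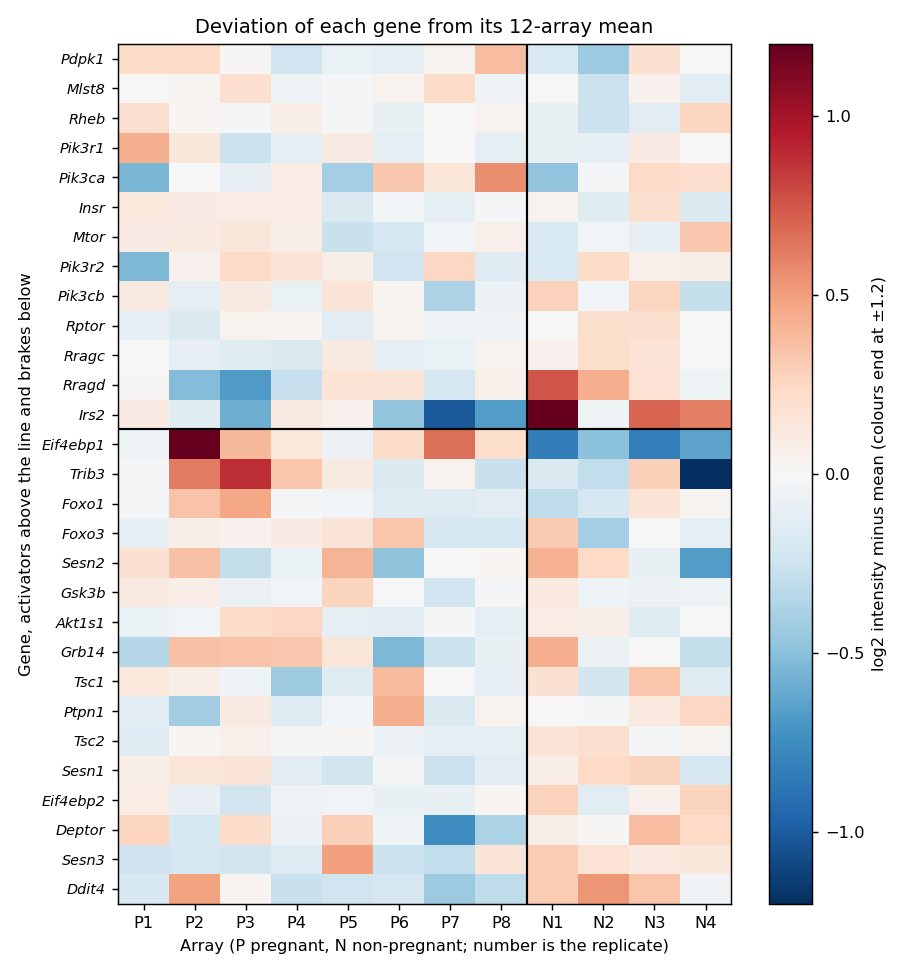
Log2 intensity of 29 pathway genes on each array, as the deviation from that gene's mean over 12 arrays (colours end at 1.2 in either direction), with the 8 pregnant arrays left of the line and the 4 non-pregnant arrays right of it. Activators stand above the horizontal line and brakes below, each ordered by log2 change. The rows of Eif4ebp1 and Irs2 differ most across the vertical line, with pregnant replicate 2 the highest for Eif4ebp1 and non-pregnant replicate 1 the highest for Irs2, while most other rows stay pale.

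Further genes of the same route, from lists made by function, gave few calls. These lists were not split into activators and brakes, so their medians do not speak for either class. At the receptor level 10 of 19 listed genes were measured and none was called (median log2 change -0.01). Of 27 further PI3-kinase and AKT genes 19 were measured and none was called, although their median was -0.22 and the 6 with an unadjusted p under 0.05 were all lower. The groups did not overlap for 2 of those 6, the PI3-kinase regulatory subunit gene Pik3r3 (-0.35 ± 0.10, adjusted p = 0.0831) and the class III PI3-kinase gene Pik3c3 (-0.28 ± 0.09, adjusted p = 0.118). The others of the 6, with overlap, were Pik3ip1 (-0.62), Foxo6 (-0.42), Pik3cd (-0.33) and Inppl1 (-0.23). Of 38 further genes of mTORC1 and amino acid sensing 31 were measured and none was called (median -0.12). Of 15 genes of the translation machinery that mTORC1 controls 11 were measured and none was called (median 0.02).

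Target genes of the transcription factors downstream of the pathway were counted in the same way. None of the 15 FOXO target genes measured was called (median 0.07), and none of the 15 SREBP target genes of lipid synthesis was (median -0.01). Of 28 ATF4 target genes, which serve amino acid supply, 16 were measured, 12 of them higher at any size, with a median of 0.27. The 2 called, both higher, were Chac1, which encodes a glutathione-degrading enzyme, and Mthfd2, a mitochondrial folate enzyme gene that passed through a probe other than its brightest. Over all genes 1.51% were called higher. Chac1 ranged over 11.25 to 11.76 on the 8 pregnant arrays, against 10.75, 10.90, 10.48 and 10.27 on the 4 non-pregnant arrays, without overlap (0.88 ± 0.13, adjusted p = 0.00234). At an unadjusted p under 0.05, 8 of the 16 were higher and 2 lower, against 17.6% of all genes in either direction. The groups also did not overlap for Shmt2 and Psat1, genes of glycine and serine synthesis, at 0.36 ± 0.11 and 0.40 ± 0.14 (adjusted p = 0.0851 and 0.137). Over all genes the groups did not overlap for 3.19%. The 2 lower genes were the transcription factor gene Cebpb, at -0.40 ± 0.12 (adjusted p = 0.0851), and the phosphatase subunit gene Ppp1r15a, at -0.23 ± 0.11 (adjusted p = 0.291). Atf4 itself had a log2 change of 0.05 ± 0.09.

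Glucocorticoids, which rise in pregnancy, oppose insulin action in many tissues, and Ddit4 is one of the genes they induce. Of 12 other glucocorticoid-induced genes, all measured, 4 were called higher (1.51% over all genes) and none lower (1.56% over all genes), with a median of 0.00. The 4 were Sult1a1 (0.71, adjusted p = 0.00499), Cdkn1a (1.02, adjusted p = 0.00674), Mt2 (0.54, adjusted p = 0.0180) and Fkbp5 (0.49, adjusted p = 0.0293), which encode a sulfotransferase, the cell cycle inhibitor p21, a metallothionein and a co-chaperone of the glucocorticoid receptor. At an unadjusted p under 0.05, 4 of the 12 were higher and 2 lower, Dusp1 (-1.36, adjusted p = 0.135) and Klf9 (-0.33, adjusted p = 0.130), a phosphatase gene and a transcription factor gene. Dusp1 was also counted among the immediate early genes. Ddit4, at -0.42, was likewise not called. The part of glucocorticoids in these results was not tested.

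**Figure D4:**
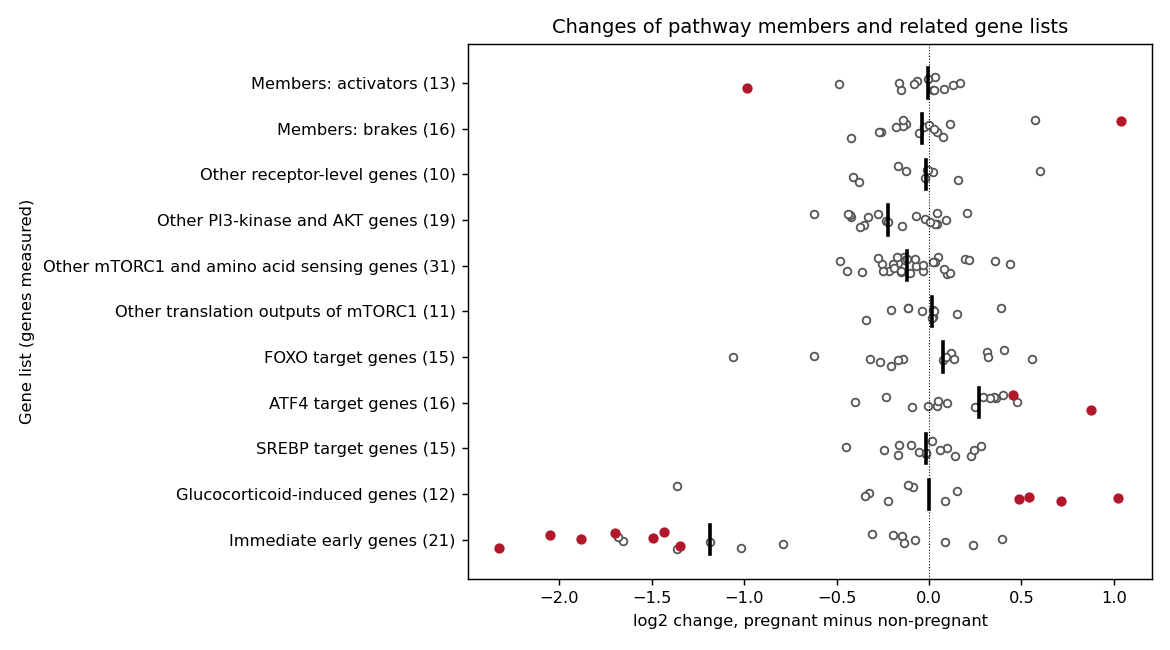
Log2 change (pregnant minus non-pregnant) of the activators and brakes and of 9 related gene lists, with 1 point per gene by its probe of highest mean, filled points for called genes, a vertical bar for the median of the list and the number of genes measured in brackets. The medians of activators (-0.01) and brakes (-0.04) lie near 0, that of ATF4 target genes at 0.27 and that of immediate early genes at -1.18.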

How the data were processed

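Whole pituitaries of 8 pregnant and 4 non-pregnant females were measured, 1 bead array each. The authors deposited a linear intensity per probe and array, with its detection p-value, for 45281 probes. They also deposited a second table processed with lumi, of no stated version, whose intensity values were used only as an alternative. Scanner software gives the deposited detection p-value by comparing a probe with negative control beads.

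The members and lists were chosen with earlier results of these data known. Raw intensities were background-corrected with normexp (limma 3.58.1, R 4.3.3; offset 16, the negative controls being estimated through the detection p-values), then quantile-normalised and log2-transformed. Of 18626 probes kept, 16013 had 1 gene name and 2613 none. Names came from the platform annotation, with 34807 of 34885 single symbols updated through RefSeq (GRCm38.p6). All 12 arrays were fitted with lmFit and eBayes, and the two-sided p-values of every kept probe were adjusted together by the Benjamini-Hochberg method. Lists were described by counts and medians only.

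Each member was named. Values by array were given for members that were called or had an unadjusted p under 0.05, and for Ddit4 and Insr. Those of Rragc, Deptor, Sesn3 and Eif4ebp2 were added after their values were seen. Genes of other lists were named when called, up to 4 a list, plus Grb10. Immediate early and marker genes were given by list, with called markers named. Pik3r3, Pik3c3, Shmt2, Psat1, Cebpb, Ppp1r15a, Atf4, Dusp1, Klf9, Klf6, Jund, Maff and the hormone genes were named after their values were seen. So were Plk1, Birc5, Top2a, Cdk1, Btg2, Pik3cd, Foxo6, Pik3ip1 and Inppl1. The procedure was tested on simulated data. Alternatives were other background, scaling, offset, filter, variance and probe settings, array weights, a replicate block, and each array left out. The number of arrays limits the precision.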

Additional observations from a re-analysis of the deposited data

Results flagged for a closer look

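Gsk3b had 1 array far from the others of its group: non-pregnant replicate 1 measured 10.8 log2 intensity, against 10.61 to 10.64 on the other 3 non-pregnant arrays, so that the gap took up 0.856 of the range of the group. The 29 genes gave 58 groups to examine, and 1 was marked in this way, where chance marks about 1 in 20 groups.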

How the results depend on the processing

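One gene, Eif4ebp1, was called higher under every setting that left no array out, with a log2 change between 0.76 and 1.13. The replicate block is among these settings, although its change rests on replicates 1 to 4 of each group. With 1 array left out the number called higher ran between 0 and 1. The number called lower was 0 without a detection filter, with trended and robust variances or with a replicate block. It was 4 with array weights (Irs2, Ddit4, Rragd by its second probe and Grb14 by its dim second probe). It ran between 0 and 2 with 1 array left out, with 2 (Irs2, and Foxo1 by its dim probe) without pregnant replicate 1. The adjusted p of Irs2 was 0.107 without a filter, 0.0571 with trended variances and 0.164 with the replicate block. Its log2 change with the block was -0.79. The cause was not tested for the filter or the variances. Pregnant replicates 5 to 8 have no non-pregnant array of the same number. The change in the block fit therefore rests on replicates 1 to 4 of each group. The block used the replicate numbers of the labels, which are not stated to pair animals. Same-numbered arrays had residual correlations of 0.163, 0.0602, 0.0145 and 0.203, and not every array correlated best with its own number. These few values cannot show whether the numbers pair animals. Over all genes the block cut the calls to 60 higher and 33 lower, against 163 and 169. Array weights gave 544 and 647, and leaving out non-pregnant replicate 4 gave 400 and 475, replicate 1 75 and 61, and replicate 3 59 and 54. The medians of activators and brakes moved by less than the spread between arrays under all settings run.

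Several genes with a change near 0, none of them called, changed sign. Array weights gave -0.079 for Insr, -0.024 for Pik3r1, 0.048 for Mtor, 0.038 for Akt1s1 and -0.017 for Sesn2. The replicate block, resting on replicates 1 to 4 of each group, gave -0.12 for Pik3ca, 0.10 for Mtor, 0.15 for Grb14 and 0.090 for Akt1s1. Averaging probes gave 0.11 for Tsc1 and -0.11 for Foxo1. Median scaling gave -0.0085 for Pik3ca, and no background correction gave 0.00017 for Akt1s1. With 1 array left out, the log2 change ran between -0.027 and 0.095 for Insr, -0.027 and 0.072 for Pik3r1, -0.14 and 0.0098 for Pik3r2, -0.13 and 0.11 for Pik3ca, and -0.071 and 0.099 for Mtor. It ran between -0.13 and 0.11 for Grb14, -0.14 and 0.048 for Tsc1, -0.049 and 0.028 for Akt1s1, -0.17 and 0.19 for Sesn2, -0.0093 and 0.071 for Gsk3b, and -0.042 and 0.20 for Foxo3. The cause was not tested. A chip block was not run, since the file headers name no chips. Genes whose probes were not detected have no value here, which does not show that they are not expressed.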
